A study of Mus musculus with 8 samples.

Results

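The 7 genes described here, Sox1, Olig2, Sox11, Pax6, Nes, Tubb3 and Stmn2, are early neural transcription factors and neuronal markers. They were named as a group by what they are known for, with no threshold on a value measured on these arrays. The choice was made with earlier results of these data known, so counts of calls among them do not test for an excess. All their probe sets with exactly 1 gene symbol were used: 20 of the 34758 such probe sets, for 7 of 18140 genes. Expression was measured on 8 Affymetrix mouse arrays of V6.5 embryonic stem cells, a mouse line derived from the early embryo. All cells, controls included, were infected with a hairpin virus with 8 µg/ml polybrene and then kept for 4 days in 4 µg/ml puromycin, and RNA was taken after 5 days. Each of the 4 groups had 2 arrays. The Smc1 knockdown (gene Smc1a, a core subunit of cohesin) was 1 hairpin in 2 biological replicates. The CapH2 knockdown (gene Ncaph2, a subunit of condensin II) used hairpins 3 and 4, and the Smc2 knockdown (a subunit of both condensins) hairpins 1 and 2, with 1 array each. The control was 1 hairpin against GFP, a jellyfish protein that unmodified mouse cells do not make, in 2 biological replicates. With 1 hairpin each for Smc1 and GFP, effects on the target and on other genes cannot be told apart.

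When embryonic stem cells leave pluripotency towards the nervous system, transcription factors of the Sox and Pax families mark the first neural progenitors, and Nes, an intermediate filament gene, is the classical marker of such progenitors. Sox11 belongs to the SoxC group, which acts as progenitors become neurons. Tubb3 and Stmn2 code for cytoskeletal proteins of young neurons. Several of these genes are also transcribed in embryonic stem cells and in the epiblast, so a signal from one of them is not by itself a sign of a neural cell.

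In the Smc1 knockdown the neural genes split. Olig2, Sox1 and Stmn2 fell against GFP, while Sox11, Pax6 and Nes rose. Tubb3 was not called. That makes 6 of 7 genes called, 3 in each direction, at a Benjamini-Hochberg adjusted p below 0.05 in limma over 12394 genes. Of all genes tested, 14.0% were called, 9.30% higher and 4.69% lower. For these 3 genes each way the Smc1 and GFP arrays did not overlap, as in 34.5% of all genes on the higher side and 28.4% on the lower. In the CapH2 knockdown and in the Smc2 knockdown 0 of the 7 were called, where 0.0161% of all genes were called in each. The direct comparison of the Smc1 knockdown with both condensin knockdowns called 3 of 7, all lower, against 7.75% of all genes called either way, 2.23% lower and 5.53% higher.

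The stem cell label was checked against marker genes. All 8 stem cell markers listed, among them Pou5f1 and Nanog, lay above the array medians of 62.5 to 74.5 intensity units on all 8 arrays. Each targeted gene was low in its own knockdown: Smc1a measured 535 and 454 on the Smc1 arrays, against 4165 and 3662 on GFP, Ncaph2 398 and 429 on the CapH2 arrays, against 3469 and 3168, and Smc2 2234 and 2859 on the Smc2 arrays, against 8756 and 7146. Pearson's r across the genes tested was 0.968 to 0.981 within groups and 0.914 to 0.985 between groups. Values below are deposited intensities, and log2 changes are on the log2(intensity + 16) scale, which understates changes of dim genes. With 2 arrays a group, the number of arrays limits every value.

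Of the 20 probe sets, 13 lay above the array median on all 8 arrays, 4 lay below it on all 8 and 3 were mixed. Those below everywhere were 1 of 2 for Sox1, 1 of 3 for Nes and 2 of 5 for Pax6. The filter, above the median on at least 2 arrays, kept 15 probe sets and all 7 genes. A gene is represented by its probe set with the highest mean log2 value. Intensities of different genes or probe sets are not compared, since probes differ in brightness.

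**Figure D1:**
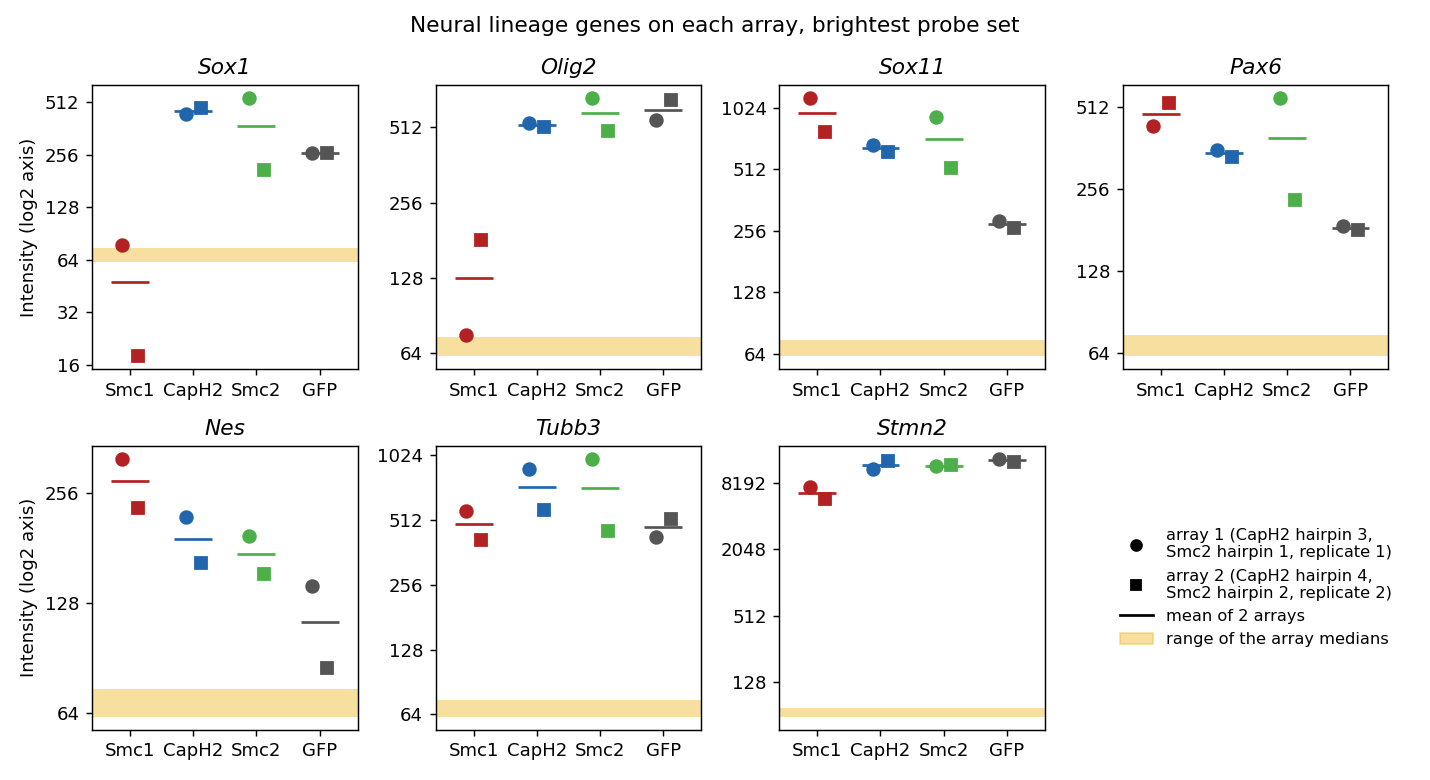
Intensity (log axis) of the 7 neural lineage genes on each array, 1 panel per gene, with the Smc1, CapH2, Smc2 and GFP groups from left to right, 1 point per array, a bar at the group mean and a shaded band over the range of the array medians. The Smc1 points of Olig2 and Stmn2 lie below all the others, and both Smc1 points of Nes lie above all the others.

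Sox1, Olig2 and Sox11 carry the 2 opposite directions of the result, and the windows around their starts are shown for that reason. Each runs from 250 bases before to 50 bases after the start of the gene as given by RefSeq for the assembly GRCm38.p6, 5' to 3' on the gene's own strand. Capitals mark the octamer ATGCAAAT, the letters bound by Pou factors, in Sox1, and in Olig2 the Sox core ACAAT, here on the other strand as ATTGT, and the TATA letters TATAAA.

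Sox1 promoter, chr8:12395269-12395568, plus strand: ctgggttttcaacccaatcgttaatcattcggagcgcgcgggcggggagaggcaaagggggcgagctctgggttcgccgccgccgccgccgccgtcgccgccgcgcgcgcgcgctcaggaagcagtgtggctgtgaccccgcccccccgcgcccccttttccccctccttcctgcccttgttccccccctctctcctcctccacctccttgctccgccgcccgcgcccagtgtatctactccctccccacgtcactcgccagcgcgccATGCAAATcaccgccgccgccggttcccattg

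Olig2 promoter, chr16:91225300-91225599, plus strand: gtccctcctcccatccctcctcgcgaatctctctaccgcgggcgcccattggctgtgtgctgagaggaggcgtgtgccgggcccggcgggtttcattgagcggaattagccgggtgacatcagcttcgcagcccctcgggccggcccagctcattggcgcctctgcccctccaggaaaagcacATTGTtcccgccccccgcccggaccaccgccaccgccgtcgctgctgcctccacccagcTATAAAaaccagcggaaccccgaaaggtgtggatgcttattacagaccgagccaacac

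Sox11 promoter, chr12:27342669-27342968, minus strand: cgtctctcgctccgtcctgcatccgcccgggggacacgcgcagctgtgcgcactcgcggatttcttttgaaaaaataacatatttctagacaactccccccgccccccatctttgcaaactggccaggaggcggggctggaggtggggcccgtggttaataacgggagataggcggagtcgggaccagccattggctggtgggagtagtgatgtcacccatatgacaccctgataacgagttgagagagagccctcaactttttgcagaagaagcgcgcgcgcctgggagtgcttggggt

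All 3 windows are rich in CpG. They hold 37 CpG in Sox1, 25 in Olig2 and 21 in Sox11, where the median of 32851 RefSeq windows of the same length is 7. The GC content is 70.7% for Sox1, 65.0% for Olig2 and 58.7% for Sox11, against a median of 52.7%. The Sox1 octamer stands 18 bases after the start, and 1.74% of all windows hold that motif on either strand. In Olig2 the Sox core stands 67 bases and the TATA letters 8 bases before the start, motifs that 31.0% and 13.6% of all windows hold. The 3 motifs were searched on both strands, and in these windows the matches do not overlap. The Sox11 window holds none of the 3. Of the others, 18 CpG and 1 Sox core were counted for Nes and 26 CpG and 3 Sox cores for Tubb3. The windows of Pax6 held 18 and 16 CpG, the first of them with 1 Sox core. In all, 6 of the 7 genes had a window. These are matches of letters and not sites of binding.

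Sox1, a SoxB1 factor and among the earliest markers of the neural plate, gave intensities of 77.8 and 18.0 in the Smc1 knockdown, 438 and 476 in the CapH2 knockdown, in the order of hairpins 3 and 4, 542 and 210.0 in the Smc2 knockdown, in the order of hairpins 1 and 2, and 261 and 260.3 in the GFP control. Both Smc1 arrays were below all 6 others, and replicate 2 was below the array medians. The Smc1 mean was 47.9 ± 42.3 (SD, n = 2), 18.4% of the GFP mean of 261 ± 0.282, which is -2.29 on the log2 scale (SE 0.490, limma adjusted p = 0.0156). Because 1 Smc1 array was below the median and no detection calls were used here, the size of the fall is not firm. The call was lost without Smc1 replicate 2 (-1.56, adjusted p = 0.0709), GFP replicate 1 (-2.29, 0.115) or GFP replicate 2 (-2.29, 0.0834). CapH2 averaged 457 ± 27.0 and Smc2 376 ± 235, changes of 0.77 (adjusted p = 0.527) and 0.36 (adjusted p = 0.773) against GFP. Both CapH2 arrays were above both GFP arrays, while the Smc2 arrays lay on either side of them. The second Sox1 probe set read 4.97 to 10.99 on all 8 arrays, below every array median, and was not tested.

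Olig2, a basic helix-loop-helix factor of motor neuron and oligodendrocyte progenitors, gave intensities of 75.5 and 181 in the Smc1 knockdown, 530.2 and 515 in the CapH2 knockdown, 671 and 496 in the Smc2 knockdown and 545 and 658 in the GFP control. The Smc1 arrays lay below the other 6. Both CapH2 arrays lay below both GFP arrays, and the Smc2 arrays lay on either side of them. The Smc1 mean of 128 ± 74.5 was 21.3% of the GFP mean of 602 ± 80.3 (SD, n = 2), which is -2.20 on the log2 scale (SE 0.331, limma adjusted p = 0.00434). This call held in all 19 alternatives, between -2.75 and -1.64. The changes in CapH2 (-0.19, adjusted p = 0.834) and Smc2 (-0.05, adjusted p = 0.960) did not pass the test. Its 1 probe set lay above the median on all arrays, on Smc1 replicate 1 only just (75.5 units), so that the size of the fall is not firm. Olig1, its relative in the oligodendrocyte lineage, was not called in the Smc1 knockdown (0.24, adjusted p = 0.509), and Olig3 was below the median on all 8 arrays and was not tested.

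Stmn2, a stathmin that binds tubulin in growing axons, gave intensities of 7388 and 5829 in the Smc1 knockdown, 10972 and 12782 in the CapH2 knockdown, 11524 and 11775 in the Smc2 knockdown and 13486 and 12488 in the GFP control. The Smc1 arrays were again the lowest of the 8. The Smc1 mean of 6609 ± 1102 was 50.9% of the GFP mean of 12987 ± 706 (SD, n = 2), which is -0.98 on the log2 scale (SE 0.145, limma adjusted p = 0.00395), and this call too held in all 19 alternatives, between -1.18 and -0.81. The second probe set read 1622 and 1276 on Smc1, 3195 and 2747 on CapH2, 2690 and 1823 on Smc2 and 3437 and 4161 on GFP, a change of -1.38 (adjusted p = 0.00486 in a fit over 21730 probe sets). The CapH2 and Smc2 changes of the gene, on its brighter probe set, were -0.13 (limma adjusted p = 0.721, 95% interval -0.45 to 0.19) and -0.16 (adjusted p = 0.667). On the dimmer probe set they were -0.35 (adjusted p = 0.520) and -0.77 (adjusted p = 0.235), also without a call. In the same family Stmn3 stood at -0.9997 in the Smc1 knockdown without a call (limma adjusted p = 0.0527) and Stmn1 at -0.24 (adjusted p = 0.635). Against both condensin knockdowns 2 of the 3 tested stathmins were called lower, where 2.23% of all genes were. In some alternatives 2 were also called lower against GFP. One was the filter above the median on all 8 arrays, with 14.3% of all genes called.

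Sox11 gave intensities of 1147 and 778 in the Smc1 knockdown, 675 and 622 in the CapH2 knockdown, 929 and 521 in the Smc2 knockdown and 287 and 265 in the GFP control. All 6 knockdown arrays were above both GFP arrays. The Smc1 mean of 962 ± 260.5 was 349% of the GFP mean of 276 ± 15.6 (SD, n = 2), which is 1.72 on the log2 scale (SE 0.286, limma adjusted p = 0.00634). The call was lost without Smc1 replicate 1 (1.45, adjusted p = 0.0766) and without GFP replicate 1 (1.77, 0.0585). Averages were 648 ± 37.7 in CapH2 and 725 ± 289 in Smc2. These gave changes of 1.19 (unadjusted p = 0.00199, adjusted p = 0.203) and 1.29 (unadjusted p = 0.00114, adjusted p = 0.191), which were not called. The 3 comparisons share the GFP arrays. All 6 Sox11 probe sets lay above the medians on every array. Their Smc1 changes ran from 0.80 to 1.98, and in the fit over probe sets the dimmest was the only one not called (0.80, adjusted p = 0.114).

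Pax6, a paired-box factor of forebrain and eye progenitors, gave intensities of 436 and 529.6 in the Smc1 knockdown, 355 and 337 in the CapH2 knockdown, 554 and 233 in the Smc2 knockdown and 188 and 181 in the GFP control. Here too all 6 knockdown arrays were above GFP, and the Smc2 arrays spanned the Smc1 ones. The Smc1 mean of 483 ± 65.9 against 185 ± 4.65 in GFP (SD, n = 2) gave 1.31 on the log2 scale (SE 0.338, limma adjusted p = 0.0314). The call was lost without Smc1 replicate 1 (1.44, adjusted p = 0.130), Smc1 replicate 2 (1.17, 0.125), GFP replicate 1 (1.33, 0.158) or GFP replicate 2 (1.28, 0.129). CapH2 (0.85, adjusted p = 0.365) and Smc2 (0.91, adjusted p = 0.333) were not called. Of the 4 other probe sets, the brightest was at 1.04 in the Smc1 knockdown without a call (adjusted p = 0.0961). The other 3, at 0.49, 0.32 and -0.21, were too dim to be tested.

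Nes gave intensities of 318 and 234 in the Smc1 knockdown, 219.6 and 165 in the CapH2 knockdown, 195 and 154 in the Smc2 knockdown and 143 and 84.8 in the GFP control. The 4 groups lay in that order of their means, and only the Smc1 arrays were above all others. The Smc1 mean of 276 ± 59.7 against 114 ± 41.1 in GFP (SD, n = 2) gave 1.19 on the log2 scale (SE 0.307, limma adjusted p = 0.0314). The call was lost without Smc1 replicate 1 (0.98, adjusted p = 0.219), Smc1 replicate 2 (1.40, 0.0563), GFP replicate 1 (1.52, 0.0683) or GFP replicate 2 (0.86, 0.168). CapH2 stood at 0.71 (adjusted p = 0.388) and Smc2 at 0.58 (adjusted p = 0.445). Of the other Nes probe sets, 1 stood at 0.41 in the Smc1 knockdown without a call (adjusted p = 0.371), and the other was below the median everywhere.

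Tubb3, the neuronal class of beta tubulin, gave intensities of 566 and 412 in the Smc1 knockdown, 884 and 572 in the CapH2 knockdown, 987 and 456 in the Smc2 knockdown and 427 and 518 in the GFP control. The Smc1 and GFP arrays overlapped. The Smc1 mean was 489 ± 109 and the GFP mean 472 ± 63.8 (SD, n = 2), which is 0.04 on the log2 scale (SE 0.352, limma adjusted p = 0.956) with a 95% interval of -0.75 to 0.82. Averages were 728 ± 221 in CapH2 and 722 ± 375 in Smc2, at 0.58 (adjusted p = 0.510) and 0.50 (adjusted p = 0.565). Among the other beta tubulins Tubb6, of a class made in many tissues, rose by 0.92 in the Smc1 knockdown (adjusted p = 0.00786), a call lost without Smc1 replicate 1 (0.81, 0.0935) or GFP replicate 1 (0.87, 0.0771) and with averaged probe sets (0.89, 0.0502). Tubb4b (0.50, adjusted p = 0.0615) and Tubb2b (-0.63, adjusted p = 0.0850) were not called.

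**Figure D2:**
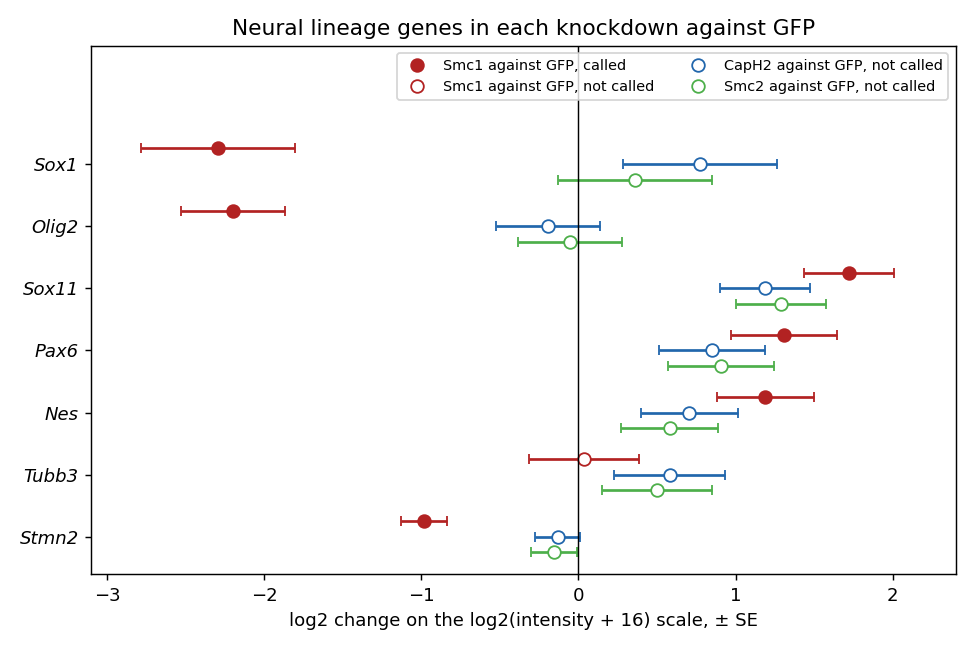
Log2 change against GFP (x axis, log2(intensity + 16) scale) of each neural gene in the Smc1, CapH2 and Smc2 knockdowns, with bars of 1 SE from limma; filled points are called at an adjusted p below 0.05. The 6 filled points are all in the Smc1 knockdown, 3 on each side of 0, and the open Smc1 point is Tubb3 at 0.04.

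**Figure D3:**
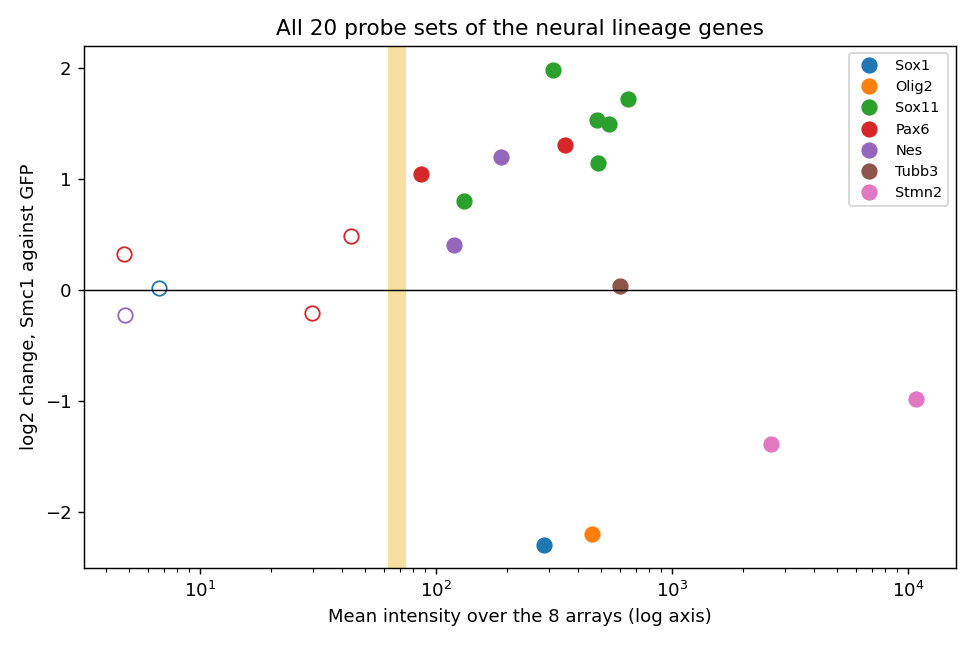
Log2 change in the Smc1 knockdown against GFP for all 20 probe sets, set against their mean intensity over the 8 arrays (log axis) and coloured by gene. Open points were not tested, and the shaded band spans the array medians of 62.5 to 74.5: the 5 untested probe sets lie left of it with changes between -0.23 and 0.49.

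The comparison of the Smc1 knockdown with the mean of both condensin knockdowns asks where cohesin differs from condensin. All 3 calls were of genes lower in the Smc1 knockdown. Sox1 differed by -2.86 (SE 0.425, limma adjusted p = 0.00675), Olig2 by -2.07 (SE 0.287, adjusted p = 0.00548) and Stmn2 by -0.84 (SE 0.125, adjusted p = 0.00685). The Smc1 arrays of these 3 genes were below all 4 condensin arrays, as in 14.6% of all genes, and those of Nes were above them, as in 20.5%. The genes that rose against GFP were not called here: Sox11 stood at 0.48 (adjusted p = 0.275, 95% interval -0.07 to 1.03), Pax6 at 0.43 (adjusted p = 0.422, -0.22 to 1.08) and Nes at 0.55 (adjusted p = 0.25005, -0.05 to 1.14). These intervals still hold a difference of up to 1.14 on the log2 scale, so the 3 genes are not shown to act alike in cohesin and condensin knockdowns. Tubb3 was at -0.50 (adjusted p = 0.362). Without Smc1 replicate 1 the calls of Olig2 (-1.52, adjusted p = 0.0810) and Stmn2 (-1.01, 0.0720) were lost, and without Smc1 replicate 2 that of Stmn2 (-0.67, 0.0514). The Sox1 call held in all 18 alternatives.

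Between the condensin knockdowns, 0 of the 7 genes were called by limma and 0 had an unadjusted p below 0.05, where 0.00807% and 1.03% of all genes did. The groups overlapped in all 7, while both CapH2 arrays lay above both Smc2 arrays in 12.5% of all genes and below them in 10.3%. At an unadjusted p below 0.05, 3 of the 7 genes passed in CapH2 against GFP and 2 in Smc2 against GFP, where 12.6% of all genes did in each. Both CapH2 arrays lay above both GFP arrays for 5 genes (25.3% of all genes) and below them for 1 (21.9%). For Smc2 the counts were 3 above (23.1%) and 1 below (21.7%). Without Smc2 hairpin 2, Sox11 (1.70, adjusted p = 0.0347) and Pax6 (1.51, adjusted p = 0.0358) were called in the Smc2 knockdown, with 1.57% of all genes (194) called there.

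The hairpins of the Smc2 knockdown differed from each other in most of these genes. Hairpin 1 was above hairpin 2 by 1.30 on the log2 scale for Sox1, 1.20 for Pax6, 1.09 for Tubb3, 0.82 for Sox11, 0.42 for Olig2 and 0.31 for Nes, while Stmn2 was at -0.03. Thus 6 of 7 genes were higher with hairpin 1, against 44.8% of all genes tested, and the median size of the difference was 0.82, against 0.30 over all genes. There is 1 array per hairpin, so this has no test. The remaining Smc2 signal was 2234 with hairpin 1 and 2859 with hairpin 2, and the part of that difference in the result was not tested. For CapH2 the median size was 0.12 over the 7 genes and 0.26 over all genes, for Smc1 0.44 and 0.23, and for GFP 0.11 and 0.22. In each of these 3 groups 5 of the 7 genes were also higher on the first array. Over all genes the shares were 51.4% for CapH2, 44.4% for Smc1 and 47.4% for GFP. A majority higher on the first array was thus not particular to the Smc2 hairpins. The Smc1 replicates differed by 1.46 for Sox1, with replicate 1 higher, and by -1.11 for Olig2, with replicate 2 higher. Gbx2, a homeobox factor of the epiblast and the midbrain-hindbrain boundary, read 1612 and 355 with Smc2 hairpins 1 and 2, and 1085 and 271 with CapH2 hairpins 3 and 4. Pou3f1, a Pou factor of epiblast and neural progenitors, read 1335 and 452 with the Smc2 hairpins and 1110 and 385 with the CapH2 ones. Ina, a neuronal intermediate filament, read 1434 and 447 with the Smc2 hairpins and 1099 and 557 with the CapH2 ones. Other genes of the wider neural lists below went the other way in both knockdowns. Mapt read 217 and 373 with the Smc2 hairpins and 242 and 373 with the CapH2 ones. Dll1 read 275 and 441 with the Smc2 hairpins and 301 and 464 with the CapH2 ones. All these genes were chosen after their values were seen, and neither direction was counted over the lists.

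**Figure D4:**
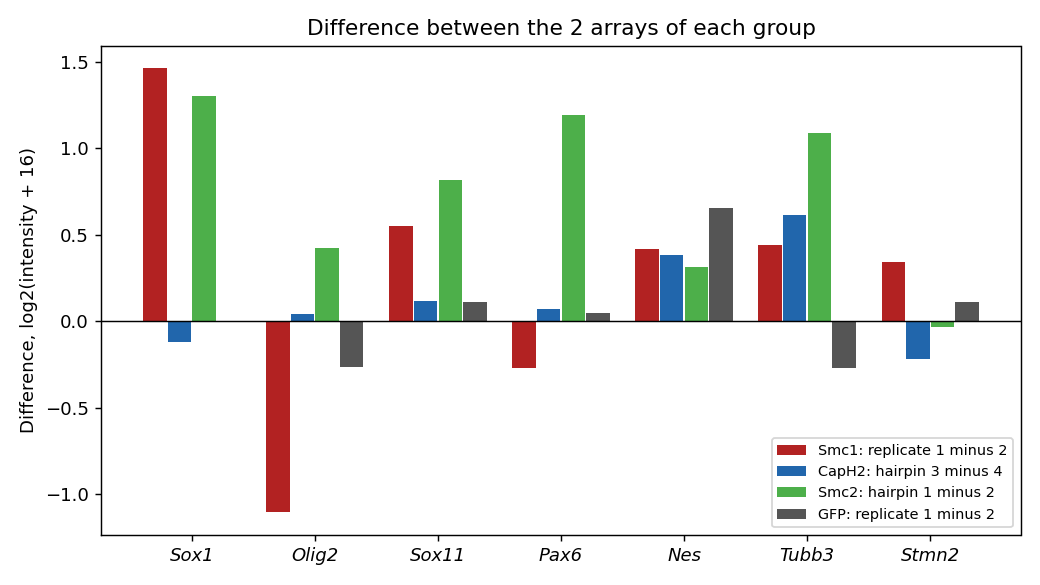
Difference between the 2 arrays of each group on the log2 scale (first minus second replicate, or lower minus higher hairpin number) for the 7 neural genes, with 1 bar per group. The Smc2 bars reach 1.30 for Sox1 and 1.20 for Pax6, and the Smc1 bars 1.46 for Sox1 and -1.11 for Olig2.

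The Sox relatives moved in both directions. Sox2, a SoxB1 factor of stem cells and neural progenitors, read 7896 and 11311 on the Smc1 arrays, against 15202 and 19892 on GFP, and fell by 0.88 (adjusted p = 0.0143). Sox3, the other SoxB1 gene, read 393 and 421 on the Smc1 arrays, against 137 and 113 on GFP, and rose by 1.59 (adjusted p = 0.0154). Sox4, a SoxC gene like Sox11, read 7857 and 5587 on the Smc1 arrays, against 2609 and 2796 on GFP, and rose by 1.29 (adjusted p = 0.00535), while Sox12 stood at -0.04 (adjusted p = 0.937). Sox1 and Sox2 were thus lower and Sox3 higher within SoxB1. The Sox2 call was lost without Smc1 replicate 1 (-0.62, adjusted p = 0.133), GFP replicate 2 (-0.68, 0.0912) or the intensity trend (0.0558), and that of Sox4 without Smc1 replicate 1 (1.04, 0.0692) or GFP replicate 1 (1.24, 0.0585). That of Sox3 was lost without any of the 4 arrays, with 1.64 (adjusted p = 0.102) and 1.54 (0.0649) without Smc1 replicates 1 and 2, and 1.72 (0.0913) and 1.46 (0.0929) without GFP replicates 1 and 2, and also with averaged probe sets (1.101, 0.104).

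A wider list of neural progenitor and neural plate factors had 34 of 36 genes on the arrays, of which 23 were tested, with 3 higher and 2 lower in the Smc1 knockdown and a median of 0.15, against 0.03 over all genes. The 3 that rose were the neural cadherin Cdh2 (2.50, adjusted p = 0.00776), the progenitor surface gene Prom1 (1.64, 0.00785) and Pou3f1 (2.23, 0.0204). Those that fell were the anterior neural plate factor Hesx1 (-1.51, 0.0356) and the replication inhibitor Gmnn (-0.45, 0.0493). Of the proneural and neuronal list 27 of 28 genes were on the arrays and 22 were tested, with 4 higher and 2 lower and a median of 0.23. Over all genes 9.30% were called higher and 4.69% lower, the shares to set beside the counts of both lists. The cytoskeletal genes Crmp1 (1.81, adjusted p = 0.00457), Map2 (1.33, 0.0253) and Dpysl3 (0.93, 0.0409) and the synaptic vesicle gene Syt1 (1.66, 0.0293) rose, while the microtubule gene Mapt (-1.33, 0.0340) and the adhesion gene Ncam1 (-1.28, 0.0376) fell. Syt1 lay below the array medians on 5 of 8 arrays, and Cdh2 (49.6) and Map2 (57.8) on GFP replicate 1 and Ncam1 (59.8) on Smc1 replicate 1 were also below them, so the sizes of these 4 changes are not firm. Syt1 passed the filter only with its Smc1 arrays (153 and 90.4), while both GFP arrays (33.2 and 20.6) lay below the medians. The filter thus kept Syt1 because it was high there, and its call is not independent of that. Fabp7 and Sp8 of the progenitor list, not called, also passed only with their Smc1 arrays and count in its median. The calls of Crmp1 (18 of 19 alternatives), Prom1 (17 of 19) and Cdh2 (16 of 18) were the most often kept, and that of Gmnn was kept in 5 of 19. The other 7 were kept in 11 to 14 of 18 or 19, Hesx1 in 13 of 19. With averaged probe sets 3 progenitor genes were higher and 0 lower, and 1 neuronal gene was higher and 0 lower. There 9.54% of all genes were called. Without the filter these counts were 3 and 0, and 2 and 0, with 6.92% of all genes called. Without the intensity trend they were 3 and 0, and 3 and 0, with 10.5% of all genes called. With only the Smc1 and GFP arrays in the fit they were 7 and 2, and 7 and 5, while 21.8% of all genes were called. Without Smc1 replicate 1, 0 genes of either list were called by limma, with 1.11% of all genes called. Without Smc1 replicate 2, GFP replicate 1 or GFP replicate 2, in that order, 2, 1 and 1 of the progenitor list were higher and 1, 0 and 0 lower, and 3, 1 and 1 of the neuronal list were higher and 2, 0 and 0 lower. Of all genes, 8.44%, 1.84% and 4.48% were called there. Without Smc2 hairpin 2, 6 progenitor genes were higher and 2 lower, and 5 neuronal genes were higher and 4 lower, with 17.7% of all genes called.

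Of 10 repressors of neuronal genes, Rest and its partners, 0 were called in limma in the Smc1 knockdown, with 2 at an unadjusted p below 0.05, as 31.2% of all genes, and a median of -0.04. Rest itself, the factor that keeps neuronal genes off outside neurons, stood at -0.60 (adjusted p = 0.0637). In the CapH2 and Smc2 knockdowns 0 genes of these 3 lists were called by limma. At an unadjusted p below 0.05 stood 5 of 23 progenitor genes in each knockdown, and 8 of 22 neuronal genes with CapH2 and 6 with Smc2, where 12.6% of all genes did. Crmp1 gave intensities of 873 and 668 with CapH2 hairpins 3 and 4 and 966 and 540.2 with Smc2 hairpins 1 and 2, against 284 and 230.4 with the GFP hairpin. Its changes were 1.52 (adjusted p = 0.153) and 1.44 (adjusted p = 0.166). Neurod1, a proneural helix-loop-helix factor, read 2288 and 1993 with CapH2 and 2487 and 2645 with Smc2, against 1137 and 1054 with GFP, at 0.95 (adjusted p = 0.216) and 1.22 (adjusted p = 0.166). Hesx1 read 135 and 189 with CapH2 and 141 and 169 with Smc2, against 415 and 674 with GFP, at -1.63 (adjusted p = 0.214) and -1.68 (adjusted p = 0.222). Neurod1, like Gbx2 and Ina above, was chosen after its values were seen. For Crmp1, Neurod1 and Hesx1 both arrays of each condensin knockdown lay on one side of both GFP arrays, without a call. Such a separation from GFP was common. With CapH2 it was found on the higher side for 25.3% of all genes tested and on the lower side for 21.9%. With Smc2 these shares were 23.1% and 21.7%, each knockdown taken alone.

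**Figure D5:**
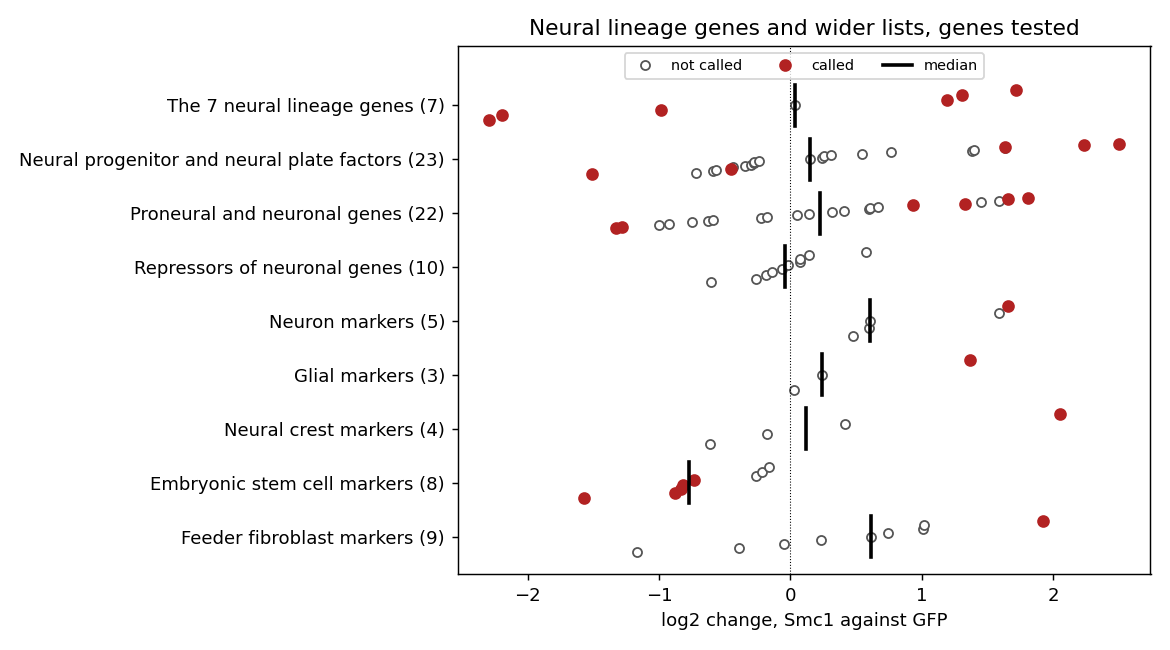
Log2 change in the Smc1 knockdown against GFP of the 7 neural genes and of the wider gene lists, 1 point per gene tested (numbers in brackets), filled where called, with a bar at each list's median. Called genes of the progenitor and neuronal lists lie on both sides of 0, and those of the stem cell markers all lie below it.

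Markers of stem cells and of other cell types were summed on the same arrays. The summed intensity of the 8 stem cell markers reached 80470 and 95572 with the Smc1 hairpin, 104847 and 109845 with those for CapH2, 113808 and 119439 with those for Smc2 and 125844 and 120763 with that for GFP. Over all genes 4.69% were called lower in the Smc1 knockdown and 9.30% higher, the shares to set beside the marker counts from all 8 arrays. Of the 8 stem cell markers 5 were called lower in the Smc1 knockdown and 0 higher. The median change of these 8 markers was -0.77 with all arrays. It was -0.54 without Smc1 replicate 1 and -0.82 without Smc1 replicate 2. Without GFP replicate 1 it was -0.69, and without GFP replicate 2 it was -0.71. In these fits 1 array stood for a group, and the 5 calls did not hold in every one. The 14 feeder fibroblast markers on the arrays summed to 10220 and 9110 on Smc1, 5038 and 2569 on CapH2, 3160 and 4490 on Smc2 and 3977 and 6247 on GFP, and 1 of 9 tested was called (higher). The contractile gene Acta2, not called (1.01, adjusted p = 0.101), made up most of it, with 8653 and 7799 on Smc1 and 3077 and 5350 on GFP. The other 13 summed to 1568 and 1311 on Smc1, 1324 and 1029 on CapH2, 858 and 1205 on Smc2 and 899 and 897 on GFP. Neural crest markers summed to 1767 and 1702 on Smc1 and 632 and 981 on GFP, with 1 of 4 tested called, Ets1 (higher). The other 8 summed to 466 and 505 on Smc1 and 396 and 630 on GFP, which overlap. Glial markers summed to 737 and 848 on Smc1 and 552 and 704 on GFP, with 1 of 3 tested called (higher). The 8 neuron markers summed to 2302 and 1867 on Smc1, 1996 and 1866 on CapH2, 2182 and 1633 on Smc2 and 1380 and 1224 on GFP. Of these, 1 of 5 tested was called, Syt1 (higher), which passed the filter only with its Smc1 arrays. Without Nefl, the brightest, the other 7 summed to 825 and 561 on Smc1, 419 and 529 on CapH2, 449 and 487 on Smc2 and 384 and 394 on GFP. The neuron-defining genes Snap25, Slc17a6 and Gad2 and the glial genes Gfap and S100b lay below the median on all 8 arrays. Of the 27 proneural and neuronal genes on the arrays, Dcx, Neurog2 and Snap25 lay below it on all 8, and 14 lay above it on all 8. Nefl and Gad1, 2 of 8 neuron markers, and Slc1a3 and Mbp, 2 of 8 glial markers, lay above it on all 8. The part of these markers in the changes of the 7 genes was not tested, and in bulk RNA fewer cells of a type and less RNA per cell cannot be told apart.

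For each gene the 3 genes with the most similar pattern over the 8 arrays were found by Pearson's r on log2 values among all genes tested. They were B230217C12Rik (0.991), Cyb5b (0.983) and Mettl1 (0.967) for Sox1, Dna2 (0.983), C730049O14Rik (0.982) and Dnajc21 (0.980) for Olig2, and Cabp4 (0.990), Atp6v1d (0.980) and Brpf3 (0.979) for Stmn2. For the genes that rose they were Ube2k (0.987), Dennd11 (0.984) and Rraga (0.982) for Sox11, Sox3 (0.988), Sfrp2 (0.969) and Ddx25 (0.966) for Pax6, and Ifnz (0.985), Gosr2 (0.977) and Nexn (0.977) for Nes. Tubb3 was most like Trip13 (0.985), Msrb2 (0.975) and Timm8a1 (0.970). Sox3 was the only SoxB1 gene among the 21 listed. All pairs share the 8 arrays and the differences between their groups, so these correlations describe likeness of pattern only.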

How the data were processed

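The deposited values are intensity on a linear scale, with 44903 probe sets on each array. For the authors' summary method, nothing is stated in the sources used here. Every array had a mean, trimmed by 2%, of 489 to 490.0, which puts the arrays on a common scale, and no further normalization was added. Detection calls were not used. Of the probe sets, 34771 carried 1 gene symbol in the platform annotation, 926 several and 9206 none; array controls were left out.

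Values were taken as log2(intensity + 16) in R 4.3.3. The probe set with the highest mean log2 value stood for each of 18140 genes, and 12394 genes above the array median on at least 2 of 8 arrays were tested. A single limma 3.58.1 model with a mean for each group was fitted to the 8 arrays, with an intensity trend (degrees of freedom: 4 residual, 5.97 prior), and p-values were adjusted by Benjamini-Hochberg over all genes tested in each of 5 comparisons. The spread is pooled over groups and mixes hairpins with replicates of 1 hairpin. Nothing in the labels says whether the 2 biological replicates were separate cultures, so p-values may measure technical spread only.

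The 7 genes, the gene lists, the tests and the alternatives were chosen with earlier results of these data known. Beside the 7 genes and their families, up to 6 genes of each list with the smallest p and 3 genes most like each of the 7 were open to naming. Promoter windows are from RefSeq, assembly GRCm38.p6; no gene positions are given because the array sources name no build.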

Additional observations from a re-analysis of the deposited data

How the results depend on the processing

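Each result was recomputed under 11 other settings of the processing and with each of the 8 arrays left out. Of the 6 calls against GFP in the Smc1 knockdown, 3 remained when the probe sets of a gene were averaged. Of all genes 9.54% were called there, against 14.0% in the main fit. Sox1 at -1.14 (limma adjusted p = 0.05004), Pax6 at 0.59 (0.234) and Nes at 0.46 (0.260) were not called. These averages take in the probe sets too dim to be tested, at 0.01 for Sox1, 0.49, 0.32 and -0.21 for Pax6 and -0.23 for Nes. They also take in tested ones without a call, at 1.04 for Pax6 and 0.41 for Nes. Without the filter 4 of the 7 genes were called, with 6.92% of all genes, and 5 without the intensity trend, with 10.5% of all genes. Under the stricter filter, above the median on all 8 arrays, Sox1 was not tested and the other 5 calls held. There 14.3% of all genes were called. With single arrays left out, 2 to 6 were called. The count for the Smc1 knockdown against the condensin knockdowns was 3, and 1 to 3 with single arrays left out. For the Smc2 knockdown against GFP it was 0, and 0 to 2. For CapH2 against GFP and CapH2 against Smc2 it was 0 under every setting run. Over the whole array the Smc1 calls against GFP numbered 1734, 1183 to 2701 under the other settings and 138 to 2190 with an array left out. The difference between replicates 1 and 2 of Smc1 was nearly unrelated to that of GFP (r = 0.0667 over 12394 genes). With 1 difference per group, this cannot tell whether replicates of the same number shared a culture or day. With a replicate block 5 of the 7 genes were called, Pax6 being lost (adjusted p = 0.0586). No called change turned its sign. Changes that were not called did: Tubb3 in the Smc1 knockdown was -0.058 after quantile normalization, -0.00494 after median centring and -0.19 to 0.26 with arrays left out; Olig2 in the Smc2 knockdown was 0.029 after median centring and -0.26 to 0.16 with arrays left out, Sox1 there -0.29 to 1.01 and Tubb3 -0.043 to 1.04. In CapH2 against Smc2, leaving out arrays gave -0.24 to 1.06 for Sox1, -0.35 to 0.073 for Olig2, -0.51 to 0.31 for Sox11, -0.65 to 0.54 for Pax6, -0.068 to 0.32 for Nes, -0.46 to 0.62 for Tubb3 and -0.086 to 0.13 for Stmn2. There, averaged probe sets gave 0.16 for Sox11 and median centring -0.030 for Stmn2. Signals near or below the array medians, as for Sox1 on the Smc1 arrays, limit what the sizes of changes can show.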
